A study of Mus musculus with 30 samples.

Results

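The genes described here are 9 genes known for high expression in the epithelium of the choroid plexus: Ttr, Folr1, Clic6, Kl, Aqp1, Otx2, Kcnj13, Slc4a5 and Prlr. They were taken by symbol from a deposited count table of 51752 genes, each symbol matched 1 row, and all 9 were kept in every library. RNA had been sequenced from 30 libraries of 15 mice in 2 experiments on interleukin-34 (IL-34), which binds the Csf1r product and keeps many microglia alive. The genotype experiment held 4 animals heterozygous for Il34 (Het, animals 1, 20, 21 and 23) and 3 Il34 knockout animals (KO, animals 3, 6 and 24), so its controls carry 1 intact copy of the gene. The antibody experiment held wild-type animals given a blocking antibody to IL-34 (anti-IL34, animals 2, 10, 11 and 24) or the control antibody anti-gp120 (animals 1, 7, 8 and 15). Het and anti-gp120 held 2 males and 2 females each, KO 1 male and 2 females, and anti-IL34 3 males and 1 female. The numbers 1 and 24 occur in both experiments and belong to different animals. Every animal had been perfused with saline and its brain cut at the midline. Whole forebrain of 1 hemisphere gave a forebrain library, and from the other hemisphere cells carrying CD11b, a surface protein of microglia and other myeloid cells, were taken up on magnetic beads to give what is called the isolate below. Neither the animals' age nor how much antibody was given, or when, is stated in the sources used here.

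The choroid plexus is a sheet of epithelial cells over a vascular core that hangs into the brain ventricles and secretes cerebrospinal fluid. Its epithelium moves ions and water through channels and transporters on its apical side, carries hormones and vitamins from blood to fluid, and is specified by homeodomain factors such as OTX2. The tissue is loosely attached, so that how much of it stays with a piece of forebrain or enters a cell suspension can depend on the dissection. In bulk RNA fewer cells of a type and less RNA per cell cannot be told apart, and that holds for every level below.

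By role the genes fall into 4 kinds. Ttr encodes transthyretin, the secreted carrier of thyroid hormone and retinol. Slc4a5 (a sodium bicarbonate cotransporter), Kcnj13 (the potassium channel Kir7.1), Aqp1 (a water channel) and Clic6 (a chloride intracellular channel family member) belong to ion and water transport. Folr1 (folate receptor alpha), Kl (klotho, a co-receptor for FGF23) and Prlr (the prolactin receptor) are receptors, and Otx2 encodes the transcription factor. In the GRCm38 coordinates of GENCODE M21, Ttr lies on chromosome 18 from 20665280 to 20674321 (plus strand) and Folr1 on chromosome 7 from 101858331 to 101870788 (minus strand). Clic6 lies on chromosome 16 from 92485736 to 92541243 (plus) and Kl on chromosome 5 from 150952607 to 150993817 (plus). Aqp1 lies on chromosome 6 from 55336432 to 55348555 (plus), and Slc4a5 on the same chromosome from 83219828 to 83304945 (plus). Otx2 lies on chromosome 14 from 48657677 to 48673819 (minus), Kcnj13 on chromosome 1 from 87386363 to 87394729 (minus) and Prlr on chromosome 15 from 10177238 to 10349180 (plus). All 9 are annotated as protein coding.

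The length deposited with each of the 9 genes equals its whole span, introns included, and neither the counted feature nor the use of strand is given in the sources used here. Reads of genes that overlap may therefore not be told apart. Kcnj13 lies inside Gigyf2 on the other strand, and Gigyf2 stood at 61.2 to 106 CPM (counts per mega-count of library total) in the 30 libraries, above Kcnj13 in each of them. Folr1 overlaps Anapc15, and Otx2 overlaps the long noncoding RNA gene Otx2os1, both on the other strand. Otx2os1 stood at 0.0646 to 11.5 CPM and, like Otx2, was higher in the Het and KO isolates than in the anti-gp120 isolates. Clic6 and Prlr overlap 2410124H12Rik and Gm21973 on their own strand, neither of which was above 0.130 CPM in any library. Ttr, Kl, Aqp1 and Slc4a5 overlap no other annotated gene.

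The sequences before 3 of the start sites are shown as examples of the stretches that were searched for a motif bound by OTX2, itself the product of one of the 9 genes. RefSeq promoter windows (GRCm38.p6, 250 bases before to 50 after an annotated start) were given for 6 of the 9 genes, 11 windows in all, and not for Ttr, Folr1 and Clic6. The 250 bases before the start, read on the gene's strand, were as follows for Kl (chr5:150952357-150952606, plus strand), Aqp1 (chr6:55336049-55336298, plus strand) and Kcnj13 (chr1:87394730-87394979, minus strand).
Kl: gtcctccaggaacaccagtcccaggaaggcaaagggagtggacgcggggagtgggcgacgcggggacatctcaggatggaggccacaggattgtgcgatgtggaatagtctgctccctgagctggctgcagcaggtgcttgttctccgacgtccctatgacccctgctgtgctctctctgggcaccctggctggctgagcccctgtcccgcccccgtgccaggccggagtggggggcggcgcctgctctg
Aqp1: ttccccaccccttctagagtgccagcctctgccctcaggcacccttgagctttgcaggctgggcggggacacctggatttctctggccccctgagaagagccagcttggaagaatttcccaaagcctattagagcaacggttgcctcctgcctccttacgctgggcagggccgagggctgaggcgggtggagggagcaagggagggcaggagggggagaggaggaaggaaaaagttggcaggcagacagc
Kcnj13: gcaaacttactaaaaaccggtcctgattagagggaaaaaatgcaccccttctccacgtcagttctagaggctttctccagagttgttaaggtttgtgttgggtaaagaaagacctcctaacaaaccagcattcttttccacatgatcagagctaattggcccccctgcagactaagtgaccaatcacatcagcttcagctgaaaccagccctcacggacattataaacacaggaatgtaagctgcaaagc
The motif TAATCC, the core bound by OTX2 and other homeodomain proteins of the bicoid type, was searched on both strands. None of these 3 stretches held it. Of the 11 windows 1 did, at position -211 from the third annotated start of Otx2 itself, and 7.06% of the 32851 windows in the table hold it. Its surroundings (chr14:48665303-48665332, minus strand), with the motif as it reads on the other strand in capitals, are shown next.
Otx2: cgtgtgcccctcGGATTAtctcgttagttt
A match of these letters is a description of the sequence and was not tested as a binding site.

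Library totals ran from 15.1 to 75.2 M counts on genes (M standing for mega), so that 1 count was worth at most 0.0664 CPM. In forebrain Il34 stood at 19.4 to 23.4 CPM in Het and 6.80 to 8.72 CPM in KO, and the arms did not overlap. The markers of microglia were present in the isolates: Csf1r ran from 1235 to 5387 CPM there, against 15.1 to 95.3 CPM in forebrain. Of the 7 microglia markers listed, Itgam, the gene of CD11b itself, was at or near 0, with at most 0.189 CPM in any library. Its span overlaps Gm49368, which stood at 2.19 to 7.80 CPM in the isolates, and whether reads were lost to the overlap was not tested.

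Of the 9 genes Ttr varied most between libraries, with an SD of its log2 level (CPM plus a pseudocount of 0.5) of 3.44 over the 15 forebrain libraries and 5.22 over the 15 isolates. In Het forebrain it stood at 148, 164, 127 and 161 CPM in animals 1, 20, 21 and 23, a mean of 150.2 ± 16.8 CPM (SD, n = 4). In the Het isolates it stood at 1640, 3694, 3481 and 1543 CPM in the same order, a mean of 2589 ± 1156 CPM (SD, n = 4). Every Het isolate was thus above every Het forebrain library, by a factor of 9.59 to 27.4 within an animal. KO forebrain held 69.8, 169 and 144 CPM in animals 3, 6 and 24, a mean of 128 ± 51.5 CPM (SD, n = 3). The KO isolates of these animals held 1392, 3186 and 1044 CPM, a mean of 1874 ± 1150 CPM (SD, n = 3). KO and Het therefore overlapped in both tissues, and Ttr was between the 8th and the 50th most abundant gene in the 7 isolates of this experiment.

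The antibody experiment did not repeat that pattern. Anti-gp120 forebrain held Ttr at 0.253, 0.369, 0.0646 and 43.4 CPM in animals 1, 7, 8 and 15, which are 19, 20, 1 and 720 counts. The anti-gp120 isolates of the same animals held 1.31, 0.0592, 2.84 and 0.125 CPM, from 1 to 66 counts. So animal 15 was alone in its arm with a level above 1 CPM in forebrain, and its isolate held 5 counts. Anti-IL34 forebrain held 0.0664, 2.34, 13.2 and 105 CPM in animals 2, 10, 11 and 24. Anti-IL34 isolates held 0.290, 1836, 522 and 18.01 CPM in that order. Animal 10 had the largest gap between its hemispheres, with 2.34 CPM in forebrain and 1836 CPM in the isolate, inside the range of the Het and KO isolates. Animal 24 stood the other way round, at 105 CPM in forebrain and 18.01 CPM in the isolate, and animal 2 had 1 count in forebrain and 6 in the isolate. By mean level the groups ran from the Het isolates through KO isolates, anti-IL34 isolates, Het forebrain, KO forebrain, anti-IL34 forebrain and anti-gp120 forebrain to the anti-gp120 isolates. The ranges of every pair of neighbours in that order overlapped, so the order of neighbours is not larger than the spread between animals.

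**Figure D1:**
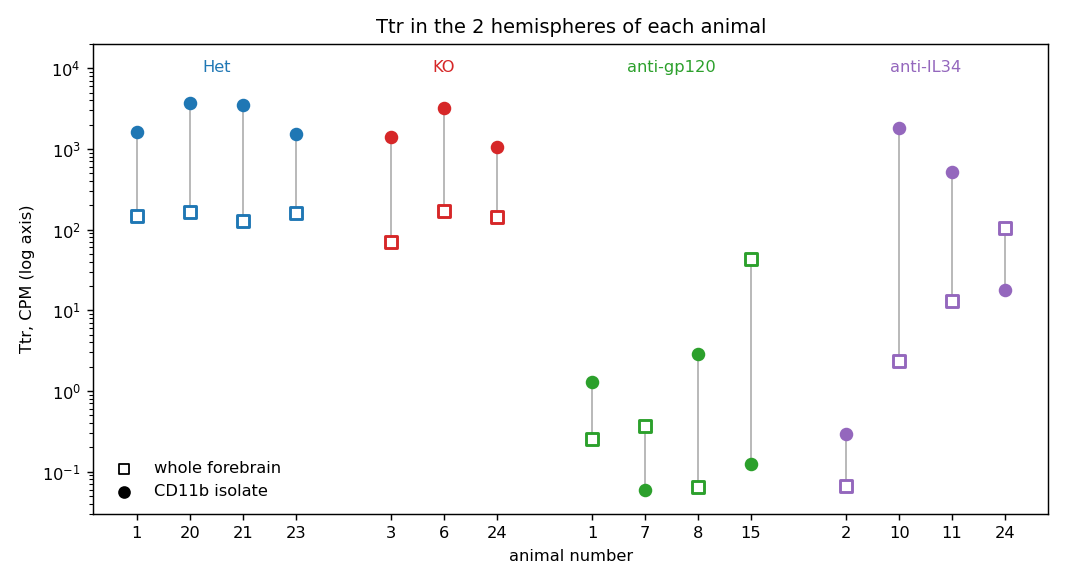
Ttr in CPM (log axis) in whole forebrain (open squares) and in the CD11b isolate (filled circles) of each of the 15 animals, with a line joining the 2 hemispheres of an animal. The isolate lies above the forebrain in all 7 Het and KO animals, in anti-gp120 animals 1 and 8 and in anti-IL34 animals 2, 10 and 11. Forebrain lies higher in anti-gp120 animals 7 and 15 and in anti-IL34 animal 24. The libraries of anti-gp120 animals 1, 7 and 8 and anti-IL34 animal 2 held 1 to 66 counts.

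The genes of ion and water transport followed Ttr in the genotype experiment and only in part in the antibody experiment. Slc4a5, which carries bicarbonate with sodium into the fluid, stood at 2.60, 2.96, 1.85 and 2.53 CPM in Het forebrain and at 20.3, 48.8, 35.8 and 16.95 CPM in the Het isolates (animals in the order above, here and below). It stood at 1.26, 3.38 and 3.30 CPM in KO forebrain and at 15.1, 32.2 and 12.12 CPM in the KO isolates. Anti-gp120 forebrain held 0.160, 0.0554, 0.129 and 0.603 CPM of it, and the anti-gp120 isolates 0.198, 0.0592, 0 and 0.0752 CPM, where a count of 0 allows up to 0.185 CPM. All 8 anti-gp120 libraries thus lay below all 14 genotype libraries for Slc4a5. In the antibody arm, anti-IL34 forebrain held 0.266, 0.139, 0.356 and 1.25 CPM and the anti-IL34 isolates 0.0965, 19.2, 4.601 and 0.513 CPM. Animal 10 was again at the level of the genotype isolates, and animal 2 near that of the anti-gp120 isolates.

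Clic6, of the chloride intracellular channel family, was called in opposite directions in the genotype and anti-gp120 animals. Het forebrain held 13.5, 15.5, 10.6 and 13.3 CPM, and the Het isolates 40.9, 86.3, 70.5 and 35.9 CPM. KO forebrain held 11.9, 10.2 and 12.01 CPM, and the KO isolates 31.4, 82.9 and 21.2 CPM. Anti-gp120 forebrain held 7.00, 7.12, 2.97 and 11.3 CPM, above all 4 anti-gp120 isolates at 1.66, 1.24, 0.371 and 2.23 CPM. In these animals Clic6 therefore ran against its direction in the genotype experiment. The call in anti-gp120 had an edgeR adjusted p of 0.0332, where 39.5% of all genes were called lower. It was lost when any single animal of that arm was left out. Anti-IL34 forebrain held 3.25, 8.46, 7.23 and 15.4 CPM, and the anti-IL34 isolates 0.917, 30.5, 8.74 and 7.70 CPM, with overlap.

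Kcnj13, the apical potassium channel, stood at 1.74 to 2.03 CPM in Het forebrain and 11.3 to 34.6 CPM in the Het isolates. It stood at 0.0752 to 1.24 CPM in the anti-gp120 isolates and at 1.69, 13.8, 4.14 and 1.94 CPM in the anti-IL34 isolates. The 2 sets of isolates in the antibody experiment did not overlap for this gene. Aqp1, which passes water and is also made by some endothelia and by red cells, stood at 2.25 to 3.02 CPM in Het forebrain and 15.2 to 43.2 CPM in the Het isolates. The anti-gp120 isolates held 3.11, 0.474, 0.494 and 1.70 CPM of it and the anti-IL34 isolates 3.04, 19.6, 6.99 and 2.05 CPM. Anti-IL34 animal 2, at the low end for Ttr and Slc4a5, thus held more Aqp1 than 3 of the 4 anti-gp120 isolates.

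The receptors come next. Folr1, which brings folate into the fluid, stood at 2.68, 2.72, 1.42 and 2.13 CPM in Het forebrain and at 18.1, 39.3, 33.6 and 16.1 CPM in the Het isolates. KO forebrain held 0.892, 2.82 and 1.98 CPM, and the KO isolates 14.1, 36.0 and 11.5 CPM. The KO and Het ranges overlapped in both tissues. Anti-gp120 forebrain held 0.426, 0.314, 0.968 and 0.422 CPM of Folr1, and the anti-gp120 isolates 1.17, 0.651, 0.433 and 0.727 CPM. Anti-IL34 forebrain held 0.199, 0.301, 0.407 and 1.38 CPM, and the anti-IL34 isolates 0.434, 16.9, 4.58 and 1.77 CPM. The highest anti-IL34 forebrain value was that of animal 24, the animal with the highest forebrain Ttr of its arm.

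Kl, whose product is also shed into the fluid, was the second most counted of the 9 genes in the Het isolates, at 60.4, 110.1, 107.3 and 49.2 CPM, against 9.88, 10.8, 8.43 and 10.4 CPM in Het forebrain. The KO isolates held 47.8, 96.0 and 32.8 CPM and KO forebrain 5.35, 10.9 and 9.42 CPM. In the anti-gp120 animals forebrain held 2.39, 2.07, 2.71 and 5.31 CPM and the isolates 1.46, 1.66, 2.78 and 1.03 CPM. Forebrain was above the isolate in 3 of those 4 animals. Anti-IL34 isolates held 1.40, 57.0, 14.1 and 2.79 CPM of Kl, and anti-IL34 forebrain 1.99, 2.43, 2.95 and 8.77 CPM. Prlr, through which prolactin reaches the plexus, was the lowest of the 9 genes per length in the Het isolates. It stood at 3.94 to 8.43 CPM in the Het isolates and at 0.910 to 1.501 CPM in Het forebrain. It had no count in the isolates of anti-gp120 animal 8 and anti-IL34 animal 24, which allows up to 0.185 and 0.171 CPM, and at most 0.158 CPM in the other anti-gp120 isolates. The isolates of anti-IL34 animals 2, 10 and 11 held 0.193, 3.84 and 0.649 CPM of it. Forebrain held 0.129 to 0.905 CPM in anti-gp120 and 0.465 to 1.48 CPM in anti-IL34.

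Otx2, the transcription factor of the set, stood at 2.35, 2.46, 2.01 and 2.28 CPM in Het forebrain and at 11.996, 27.0, 22.5 and 13.5 CPM in the Het isolates. The anti-gp120 isolates held 1.40, 1.30, 0.865 and 1.15 CPM and the anti-IL34 isolates 1.54, 11.1, 3.16 and 3.76 CPM, without overlap. Otx2 therefore kept about 1 CPM in isolates where Ttr was at 1 to 5 counts.

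**Figure D2:**
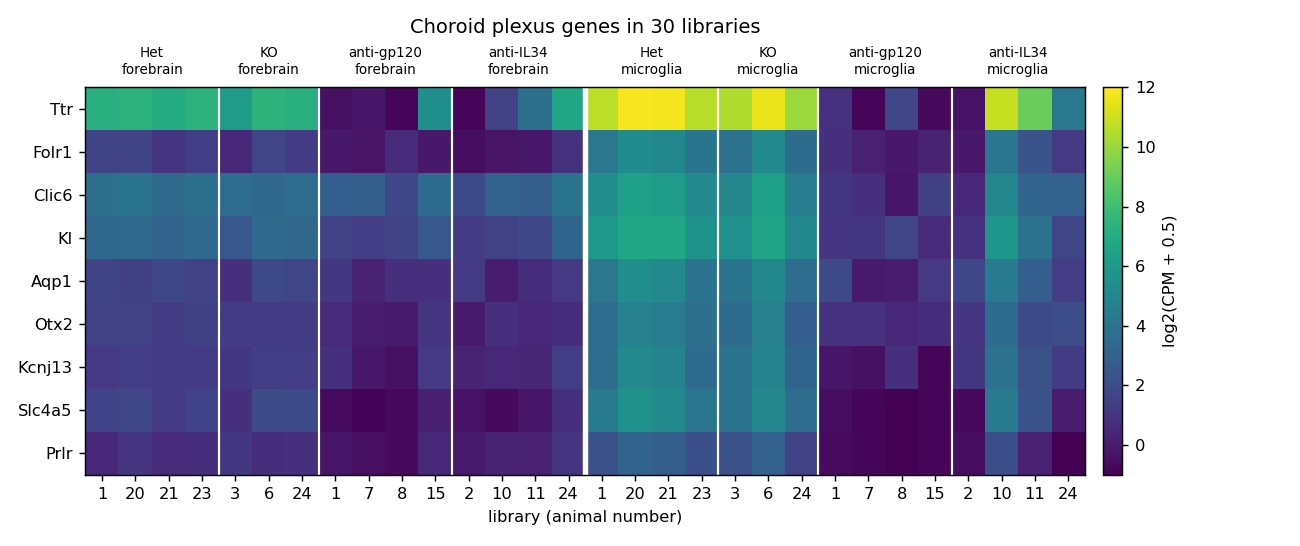
Level of the 9 genes (rows) in the 30 libraries (columns) as log2 of CPM plus 0.5, grouped by tissue and arm. The 7 Het and KO isolates and anti-IL34 animals 10 and 11 form the high columns. The low ones include the 4 anti-gp120 isolates, the forebrain of anti-gp120 animals 7 and 8, and both libraries of anti-IL34 animal 2.

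Levels between genes can be compared only per length. Per kb of merged exon in the 4 Het isolates Ttr ran from 1301 to 3114 CPM, Clic6 from 9.18 to 22.1 and Kcnj13 from 8.86 to 27.2. Folr1 ran from 7.03 to 17.1 on that scale, Aqp1 from 5.77 to 16.5, Kl from 5.28 to 11.8, Slc4a5 from 2.92 to 8.41, Otx2 from 2.84 to 6.41 and Prlr from 0.257 to 0.550. Ttr lay above all the others and Prlr below them, and the other 7 formed a run of overlapping ranges. Since it is not known whether reads were counted over exons or whole spans, the order among these 7 is not fixed: per kb of span, a scale added after seeing the data, Clic6 ran from 0.647 to 1.555, overlapping Kcnj13 at 1.34 to 4.14, and Slc4a5 from 0.199 to 0.573, below the other 6. Ttr (171 to 408) lay above all the others and Prlr (0.0229 to 0.0490) below them on that scale too. Ttr made up 89.8 to 91.1% of the summed CPM of the 9 genes in the 7 genotype isolates.

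The first comparison was between the 2 hemispheres of the same brains, isolate against forebrain. All 9 genes were higher in the isolate in each of the 7 genotype animals. In Het the log2 difference, isolate minus forebrain, was 4.11 (SE 0.43) for Ttr, a 17.3-fold higher level, with an adjusted p of 3.76e-06 (edgeR's quasi-likelihood test, Benjamini-Hochberg adjustment over all genes tested). Slc4a5 followed at 3.60, Folr1 at 3.57, Kcnj13 at 3.48, Aqp1 at 3.39, Kl at 3.05, Otx2 at 3.04, Prlr at 2.40 and Clic6 at 2.15, the highest adjusted p being 0.000324 for Clic6. So 9 of 9 rose, where 37.5% of all genes tested were called higher in the same comparison, and their median of 3.39 stood beside -0.05 over all genes. In KO the log2 differences ran from 1.82 for Prlr to 3.98 for Ttr, with adjusted p from 3.26e-05 to 0.00304. Again 9 of 9 rose, against 34.5% of all genes, with a median of 3.01 beside 0.00 over all genes. Both counts were 9 without any 1 of the 7 animals.

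In the antibody experiment the same comparison gave another result. In the anti-gp120 animals 1 of 9 genes was called, Clic6, which fell by 2.03 on the log2 scale (SE 0.81, edgeR adjusted p = 0.0332), where 39.5% of all genes were called lower. With the animal as a block its adjusted p was 0.00369. Without any 1 of the 4 anti-gp120 animals the count was 0, and without the filter on low counts it was 2. The other 8 genes did not pass the test, with log2 differences of -1.93 for Prlr, -1.76 for Ttr (3.11 without animal 15), -0.88 for Kcnj13, -0.73 for Slc4a5, -0.64 for Kl, 0.59 for Aqp1, 0.72 for Otx2 and 0.85 for Folr1. In the isolate, 5, 3, 4 and 2 of the 9 genes were higher than in forebrain in animals 1, 7, 8 and 15.

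In the anti-IL34 animals 6 of 9 genes rose in the isolate, against 39.1% of all genes called higher. Slc4a5 was 3.52 higher on the log2 scale (SE 1.28), Folr1 3.36 (SE 0.96), Aqp1 2.81 (SE 0.78), Kcnj13 2.49 (SE 0.86), Otx2 2.34 (SE 0.58) and Kl 2.31 (SE 0.98). Their edgeR adjusted p ran from 0.00221 for Otx2 to 0.0451 for Kl. Ttr, at 2.85 (SE 2.51, edgeR adjusted p = 0.314; -0.60 without animal 10), Clic6 at 0.64 and Prlr at 0.36 did not pass. With the animal as a block 4 genes were called, since Kl (edgeR adjusted p = 0.168) and Slc4a5 (0.0665) no longer passed. The count rested on 2 animals: it was 2 without animal 10 and 1 without animal 11. By animal, 5, 9, 8 and 3 of the 9 genes were higher in the isolate in animals 2, 10, 11 and 24, with median log2 differences of 0.42, 4.28, 2.08 and -0.79.

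**Figure D3:**
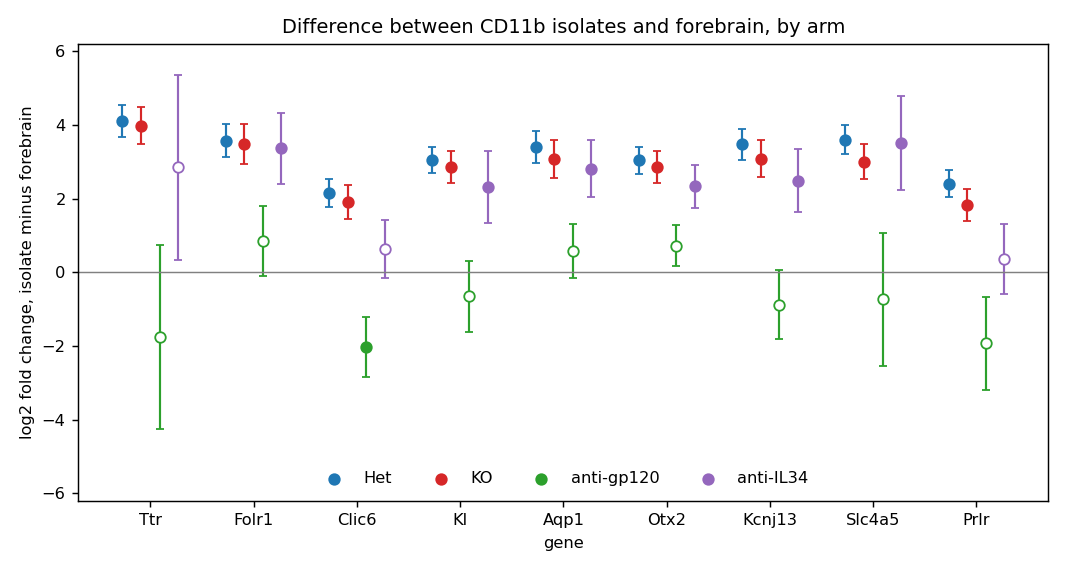
Log2 difference between isolate and forebrain for each of the 9 genes by arm, with the standard error as bars. Filled points passed an adjusted p of 0.05 in edgeR and open points did not: all 9 are filled in Het and in KO, 6 in anti-IL34, and Clic6 alone, below 0, in anti-gp120.

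The second comparison asked whether loss or blocking of IL-34 moved these genes. KO against Het gave 0 of 9 genes past the threshold in forebrain, where edgeR called 0.62% of all genes, with log2 differences from -0.39 for Ttr to 0.25 for Prlr and a median of -0.24. Of the 9, 2 had an unadjusted p under 0.05 (Ttr and Kl), as 7.45% of all genes did, and DESeq2 called 0; without the filter on low counts edgeR called Ttr. Otx2 was the one gene whose arms did not overlap, at 1.80 to 1.93 CPM in KO and 2.01 to 2.46 CPM in Het, where 5.32% of all genes were lower without overlap. In the isolates KO against Het gave 0 of 9, where 5.37% of all genes were called. All 9 differences were below 0, from -0.74 for Slc4a5 to -0.38 for Prlr, all 9 ranges overlapped (19.4% of all genes were lower without overlap), none had an unadjusted p under 0.05 in edgeR (0 of 9, against 32.6% of all genes), and DESeq2 called 0. For Ttr in the isolates the difference was -0.58 with an SE of 0.52.

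Anti-IL34 against anti-gp120 gave 0 of the 7 genes tested in forebrain, where edgeR called 0.717% of all genes. Folr1 and Slc4a5 did not pass the filter on low counts, 1 gene (Prlr, at 1.27) had an unadjusted p under 0.05, as 4.86% of all genes did, and DESeq2 called 0; without the filter edgeR called 2, Ttr and Prlr. Ttr differed by 3.93 there with an SE of 2.34. In the isolates 0 of 7 genes were called by edgeR, where 0.626% of all genes were, and all 7 had an unadjusted p under 0.05, as did 25.9% of all genes. Their log2 differences ran from 1.89 for Otx2 to 9.25 for Ttr (SE 2.50), with edgeR adjusted p from 0.104 to 0.167. DESeq2 called 4 of them, Folr1, Clic6, Aqp1 and Otx2, and edgeR called 5 without anti-gp120 animal 15, 3 without the filter and 1 without sex terms. Each of these settings also called more of all genes than the main fit, so the 0.626% is not their background. Their counts over all genes are given in the last section. Otx2 and Kcnj13 were higher in every anti-IL34 isolate than in any anti-gp120 isolate, where 8.08% of all genes were higher without overlap. Slc4a5 and Prlr did not pass the filter. The difference of the isolate-against-forebrain effect between arms was called for 0 of 9 genes in either experiment, where edgeR called 2.98% of all genes in the genotype experiment and 0.0924% in the antibody experiment. An unadjusted p under 0.05 was seen for 0 and 3 of the 9, against 31% and 21.1% of all genes, and DESeq2 called 0 in both. Without the filter on low counts 8 of 9 were called in the antibody experiment. Far more of all genes were called without it too, so the 0.0924% is not the background of that count. The count over all genes is given in the last section. The shares of all genes called between arms also rest on single animals: that for KO against Het in the isolates came from 976 genes, and 5756 were called without Het animal 1, 3115 without Het animal 21 and 0 without any 1 of the other 5 animals. For the antibodies in the isolates it came from 110 genes, and leaving out animal 15 of the anti-gp120 arm gave 6905, leaving out animal 11 of the anti-IL34 arm 514, and leaving out any 1 of the other 6 animals 0 to 6.

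The third comparison set the 2 control arms, and the KO and anti-IL34 arms, against each other across experiments. The experiments differ in genotype, in the antibody given and in whatever else separated them, and these cannot be told apart. In forebrain 4 of 9 genes were higher in Het than in anti-gp120, where edgeR called 0.228% of all genes higher. Slc4a5 was higher by 3.66 on the log2 scale (SE 0.50, edgeR adjusted p = 0.000867), Folr1 by 2.17 (SE 0.41, 0.0144), Kl by 1.74 (SE 0.33, 0.0151) and Otx2 by 1.45 (SE 0.27, 0.0124). Ttr, at 4.51 (SE 1.21), had an edgeR adjusted p of 0.0984, which ran from 0.00363 to 0.302 with 1 animal left out: it passed without anti-gp120 animal 15 (log2 difference 9.001) and without anti-IL34 animal 24 (4.76). In 7 of the 9 genes, all but Clic6 and Kcnj13, the 2 arms did not overlap, where 4.42% of all genes were higher without overlap. The count was 1 without Het animal 1, 1 without anti-gp120 animal 7, 2 without animal 1 and 2 without animal 8 of that arm. It was 6 without anti-gp120 animal 15 or anti-IL34 animal 24, which enters through the shared fit, and 9 without the filter on low counts. Microglia markers differed between the experiments in the same forebrain libraries, in the other direction. Of 6 tested, 6 were lower in Het than in anti-gp120 (median log2 difference -0.84, summed level 188 to 211 against 304 to 373 CPM), where edgeR called 0.659% of all genes lower. Between KO and anti-IL34 5 of 6 were lower in KO (median -0.71, 77.1 to 92.9 against 137 to 164 CPM), against 1.22% of all genes. Their part in the levels of the 9 genes was not tested.

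In the isolates all 9 genes were higher in Het than in anti-gp120, where edgeR called 0.753% of all genes higher. The log2 differences ran from 3.81 for Otx2 (SE 0.59) to 11.19 for Ttr (SE 2.11), and the edgeR adjusted p from 0.0277 to 0.0352. All 9 pairs of ranges were apart, as they were for 10.7% of all genes. The calls lay close to the threshold: the count was 0 without any 1 of anti-gp120 animals 1, 7 and 8 or Het animals 20 and 21, 5 without anti-gp120 animal 15, and DESeq2 called 3. The fitted difference for Ttr, Slc4a5 and Prlr rests on anti-gp120 isolates with 1 to 66, 0 to 10 and 0 to 8 counts. KO against anti-IL34 gave 0 of 9 in forebrain, where edgeR called 1.39% of all genes, with 5 unadjusted p under 0.05 (12% of all genes), 0 calls by DESeq2 and 6 without the filter. Slc4a5 came nearest, at 2.13 (edgeR adjusted p = 0.0515), and the count was 4 without anti-IL34 animal 24, 1 without anti-gp120 animal 7 and 1 without anti-gp120 animal 15. Otx2 and Slc4a5 were higher in KO without overlap there, as 6.68% of all genes were. In the isolates KO against anti-IL34 gave 0 of 9, where 2.61% of all genes were called, with 1 unadjusted p under 0.05 (18.2% of all genes) and 0 calls by DESeq2. Without anti-IL34 animal 10, whose isolate was at the level of KO, the count was 5.

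The isolate-against-forebrain difference itself was larger in Het than in anti-gp120 for 6 of 9 genes, where edgeR called 0.887% of all genes larger. The difference of differences was 4.47 for Kcnj13 (SE 0.87, edgeR adjusted p = 0.0269), 4.25 for Prlr (SE 0.71, 0.0124), 4.22 for Clic6 (SE 0.61, 0.00457) and 3.76 for Kl (SE 0.45, 0.00161). It was 2.71 for Folr1 (SE 0.57, edgeR adjusted p = 0.0434) and 2.36 for Otx2 (SE 0.48, 0.0337). Ttr (5.73, SE 2.10), Slc4a5 (4.23, SE 0.93) and Aqp1 (2.81, SE 0.71) did not pass. With the animal as a block 3 genes were called, Clic6, Kl and Prlr. Leaving out 1 animal gave 3 without anti-gp120 animal 1 and without Het animals 20 and 23, and 2 without anti-gp120 animals 7 and 15 and without Het animal 21.

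In the isolates of the genotype experiment the 9 genes stood in much the same proportions to one another, which is given here as a description. Per 1000 Ttr counts, the 7 genotype isolates held 9.64 to 11.3 counts of Folr1, 20.2 to 26.02 of Clic6, 29.8 to 36.8 of Kl and 9.73 to 11.7 of Aqp1. They held 6.48 to 8.77 counts of Otx2, 7.29 to 10.6 of Kcnj13, 10.1 to 13.2 of Slc4a5 and 2.03 to 3.03 of Prlr. The highest ratio was thus 1.17 times the lowest for Folr1 and 1.49 times for Prlr, while Ttr itself ranged from 1044 to 3694 CPM in these libraries. The isolates of anti-IL34 animals 10 and 11 lay within those ranges or below them for 7 of the 8 genes, with 9.22 and 8.77 counts of Folr1, 16.6 and 16.7 of Clic6 and 31.0 and 27.0 of Kl. The exception was Aqp1, at 10.7 counts in animal 10 and 13.4, above the range, in animal 11. The isolate of animal 24, whose ratios rest on 316 Ttr counts, lay above them for 7 genes, from 28.5 counts of Slc4a5 to 427 of Clic6 per 1000 of Ttr, and below for Prlr, which had no count. In genotype forebrain the ratios of 7 genes lay wholly above those of the isolates: Clic6 (60.2 to 170), Kl (64.5 to 76.6), Aqp1 (13.7 to 23.8), Otx2 (10.7 to 27.3), Kcnj13 (11.7 to 24.2), Slc4a5 (14.5 to 22.9) and Prlr (6.14 to 23.8). For Folr1 (11.2 to 18.1) the ranges overlapped. Over all 15 isolates the SD of the log2 ratio to Ttr was 2.48 to 4.36, and over all forebrain libraries 2.68 to 3.91. The cause of this wider spread was not tested.

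**Figure D4:**
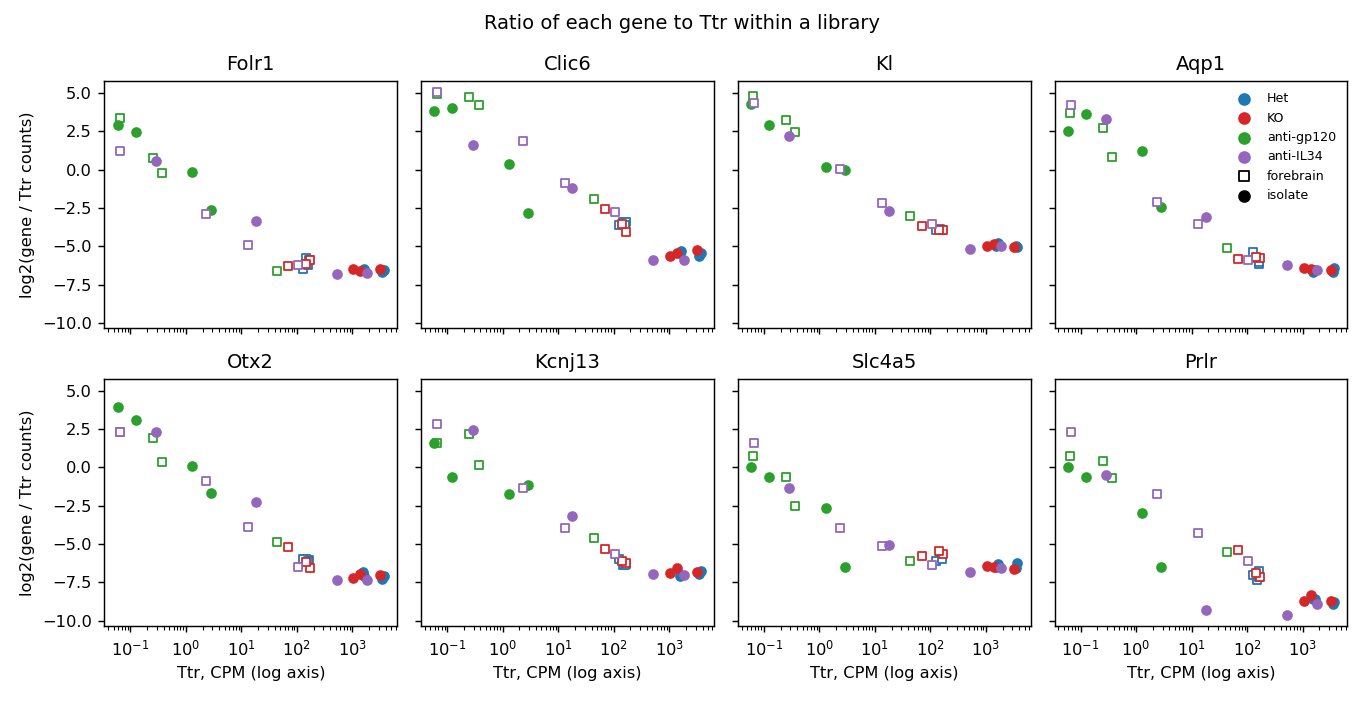
Log2 ratio of each gene's counts to Ttr counts (0.5 added to each) against Ttr in CPM (log axis), by library. Ttr enters both axes, so the rise toward the left is in part arithmetic. To the right, where Ttr is above 1000 CPM, the points of each gene lie in a narrow band.

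Other genes known from choroid plexus epithelium were followed as a list, of whose 34 genes 33 were in the table. Of the 32 tested, 30 rose in the isolate against forebrain in Het (median log2 difference 2.84), against 37.5% of all genes. In KO 29 rose (2.704), against 34.5% of all genes. Of 29 tested, 12 rose and 4 fell in anti-gp120 (median 0.85), where 39.2% of all genes were called higher and 39.5% lower, so that the share that rose was near that of all genes. In anti-IL34 20 of 29 rose (median 1.85), against 39.1% of all genes. The 4 that fell were Htr2c (-5.80), Car12 (-4.44), Cldn1 (-1.93) and Slc29a4 (-1.12). Between Het and anti-gp120, 13 of 31 were higher in forebrain and 21 of 32 in the isolates, and the isolate-against-forebrain difference was larger in Het for 11 of 32. The shares of all genes were 0.228%, 0.753% and 0.887%. In the isolates no gene at all was called higher without anti-gp120 animal 1, 7 or 8 or Het animal 20, and 7 genes were without Het animal 21, so the 21 calls rest on single animals. KO against Het and anti-IL34 against anti-gp120 called 0 of them in edgeR in either tissue, with 5 and 0 unadjusted p under 0.05 for KO against Het in forebrain and isolates and 3 and 16 for the antibodies, beside the shares of all genes given above. KO against anti-IL34 called 3 of 31 in forebrain (Ecrg4, Sostdc1 and Kcne2), all higher in KO, where edgeR called 1.39% of all genes in either direction. In the isolates it called 0 of 32, where 2.61% of all genes were called. There 6 had an unadjusted p under 0.05 in edgeR, beside 18.2% of all genes, a share near theirs. Enpp2, autotaxin, the most abundant of them and also made by oligodendrocytes, stood at 1118 to 2363 CPM in the Het isolates, 75.1 to 169 in the anti-gp120 isolates and 153 to 1195 in the anti-IL34 isolates. Slc12a2, the sodium-potassium-chloride cotransporter, overlapped between those arms, at 372 to 603 CPM in the Het isolates and 328 to 406 in the anti-gp120 isolates. Kcne2, a potassium channel subunit, had no count in any of the 4 anti-gp120 isolates and 7.24 to 20.3 CPM in the Het isolates. Igf2 had no count in any library.

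Genes were also ranked by how closely they ran with the mean log2 level of the 9, by the SD over the 15 libraries of a tissue of the difference from that mean. In forebrain the closest were Cldn2 (SD 0.240), F5 (0.273), Gmnc (0.362), Sostdc1 (0.374), Tmem72 (0.377), Ecrg4 (0.393), Igsf1 (0.489), Col8a2 (0.546), Col4a3 (0.551) and 1700030C10Rik (0.569). In the isolates they were Cldn2 (0.191), Car12 (0.306), Kcne2 (0.391), Sostdc1 (0.406), Gmnc (0.433), Mfrp (0.450), Ecrg4 (0.457), Htr2c (0.480), Tmem72 (0.557) and Cldn1 (0.614). Cldn2, a tight junction protein of leaky epithelia, was first in both. It was ranked among 15535 and 15601 genes with a mean of at least 1 CPM over the libraries of the tissue. The median SD of those genes was 0.953 and 2.34, about the SD of the mean of the 9 genes itself (0.951 and 2.38). A gene of constant level would give that SD. In forebrain Cldn2 averaged 1.02 CPM (0 to 2.48 CPM), so it passed the limit on the mean through its higher libraries. Of the 9 genes themselves Ttr departed most from their mean, with an SD of 2.92 in the isolates and 2.51 in forebrain. Otx2 (0.906), Prlr (0.844) and Aqp1 (0.768) also lay farther from it than every gene listed for the isolates. The remaining members had SDs of 0.305 to 0.592 there. In forebrain Ttr and Aqp1 (0.664) lay farther from the mean than every listed gene.

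Markers of other cell types were counted in the same way, beside the 37.5% (Het), 34.5% (KO), 39.2% (anti-gp120) and 39.1% (anti-IL34) of all genes called higher in the isolate. Of 10 ependymal genes tested, which mark the ciliated lining of the ventricles, 10 rose in the isolate in Het, 10 in KO, 9 in anti-gp120 and 9 in anti-IL34. Their summed level was 164 to 211 CPM in the Het isolates, 82.8 to 434 in KO, 32.4 to 76.2 in anti-gp120 and 31.8 to 121 in anti-IL34. The Het and anti-gp120 isolates thus did not overlap in this sum either. By edgeR 0 of 10 passed the test between Het and anti-gp120 in either tissue, with an unadjusted p under 0.05 for 5 in forebrain and all 10 in the isolates, where their median log2 difference was 1.79. Of all genes 11.5% had an unadjusted p under 0.05 in forebrain and 12.2% in the isolates. For the difference of isolate against forebrain between Het and anti-gp120, 1 of 10 was called higher and 9 had an unadjusted p under 0.05, as 8.22% of all genes did. Whether this list differed from the 9 genes was not tested. Of 10 genes of meningeal and stromal fibroblasts 6 rose in the isolate in Het and 7 in anti-gp120, and of 9 endothelial genes 8 rose in each. Between Het and anti-gp120 edgeR called 0 of 10 and 0 of 9 of them in either tissue, with an unadjusted p under 0.05 for 3 fibroblast genes and 1 endothelial gene in forebrain and 0 and 1 in the isolates. All 8 genes of border macrophages, which also live in the plexus, rose in the isolate in all 4 arms, and their summed level in the isolates was 801 to 942 CPM in Het and 535 to 1010 in anti-gp120. The 6 microglia genes tested rose in every arm's isolate, with summed levels of 9731 to 15523 CPM in Het, 3689 to 4362 in KO, 9849 to 14802 in anti-gp120 and 4422 to 7308 in anti-IL34. In forebrain 5 of 6 were lower in KO than in Het, against 0.615% of all genes, and 6 of 6 lower in anti-IL34 than in anti-gp120, against 0.525%. In the isolates the counts were 6 (5.22% of all genes) and 3 (0.603%), and 2 were lower in KO than in anti-IL34 (2.27%). Between Het and anti-gp120 isolates edgeR called 0 of 6, with 1 unadjusted p under 0.05. Of the 6 neuronal genes 6 fell in the isolate in each arm, where 40.5% (Het), 35% (KO), 39.5% (anti-gp120) and 35.9% (anti-IL34) of all genes were called lower. Astrocyte genes rose in the isolate in 1 of 6 cases in Het, 6 in KO, 2 in anti-gp120 and 6 in anti-IL34, and oligodendrocyte genes in 0, 3, 1 and 2 of 5. In forebrain 4 of 5 oligodendrocyte genes were lower in KO than in Het, beside the same 0.615% of all genes. Of 4 erythroid genes tested, 1 was higher in the isolate in KO and 0 in the other arms. Neurons of thalamus and midbrain, listed for differences in dissection, gave 0 of 6 genes by edgeR between Het and anti-gp120 in forebrain. Of these, 4 had an unadjusted p under 0.05, where 11.5% of all genes did. The median log2 difference of the list was 0.64, higher in Het. The part of any of these cells in the levels of the 9 genes was not tested.

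**Figure D5:**
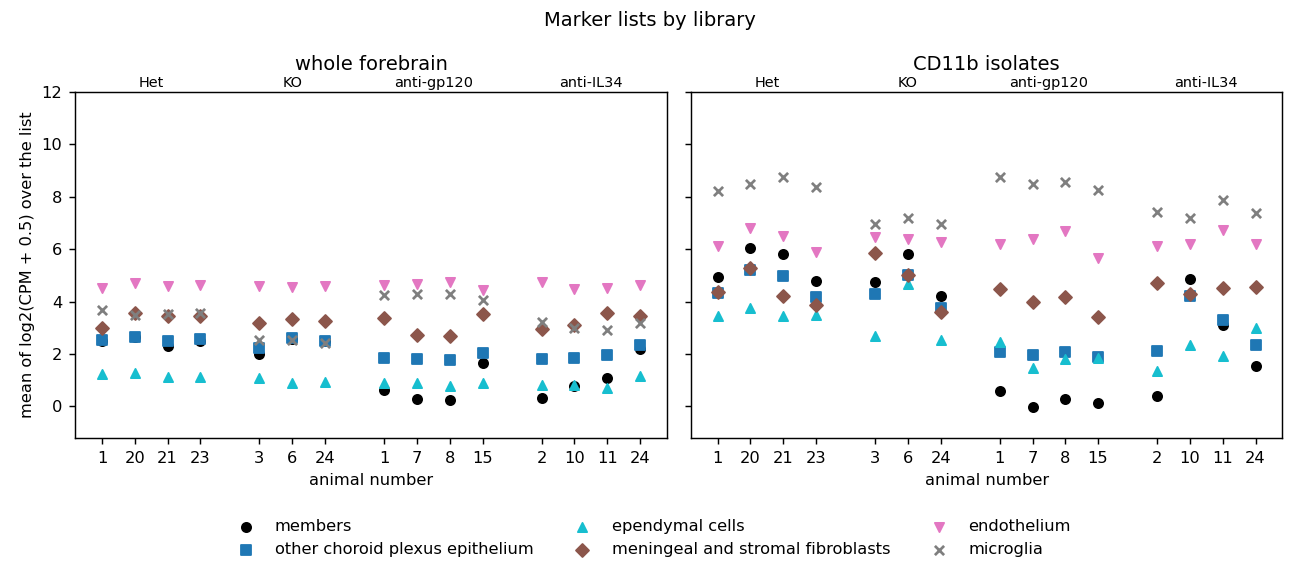
Mean log2 level (CPM plus 0.5) over the genes of 6 lists in each library, by tissue and arm. The 9 genes and the other choroid plexus genes are high in the Het and KO isolates and low in the anti-gp120 isolates, as is the ependymal list, while the fibroblast and endothelial lists overlap between these arms.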

How the data were processed

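RNA was measured by SMART-Seq v4 sequencing of 30 libraries, whole forebrain and CD11b magnetic-bead isolate of 15 mice. The authors deposited whole-number read counts per gene, not normalized, with a length per gene. The tools STAR 2.7.5c, featureCounts 1.6.3 and R 4.4.0 and the build GRCm38 are named in the submitters' processing notes, without their settings. Sample columns were matched to animals through the deposited sample sheet, all 30 rows of which matched the labels, and 6 other count columns were not used. The 8 genes without a name stayed in the tests under their identifiers.

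From the deposited counts, CPM was computed on each library's total, and log2 levels with a pseudocount of 0.5 CPM. Tests used edgeR 4.0.16 (R 4.3.3; TMM, genes kept by filterByExpr, sex as a covariate, quasi-likelihood F test, Benjamini-Hochberg adjustment over all genes tested, threshold 0.05). The test was also run on simulated data with known changes, set only in genes of higher count and with the same spread for all genes. That run does not bear on genes with few counts or a wide spread, as here in the antibody libraries. Alternatives were DESeq2 1.42.0, RLE size factors, no filter, no sex terms, the animal as a block and each animal left out. The sample sheet pairs the 2 hemispheres of an animal; the correlation of their deviations had a median of 0.110 (0.0404 to 0.172 over 15 animals, above 0.1 in 9). A count of 0 allows up to 3 counts of the library total, for counting error only.

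All 9 genes are named in every comparison; the other genes named are the 10 closest to their mean in each tissue, those of highest level in each list, and, chosen after their values were seen, list genes counted in small numbers. The genes and the lists (other choroid plexus epithelium, ependymal cells, fibroblasts, border macrophages, endothelium, astrocytes, oligodendrocytes, neurons, thalamus and midbrain neurons, microglia, erythroid cells) were chosen with earlier results of these data known.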

Additional observations from a re-analysis of the deposited data

Results flagged for a closer look

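Ttr in the forebrain of anti-gp120 animal 15 stood far from the rest of its group, at a log2 level of 5.46 (43.4 CPM) against -0.82 to -0.20 in the other 3 animals. The gap was 0.901 of the group's range, above Dixon's critical value of 0.829 for 4 samples. It was the only such case among 54 groups of 4 examined, where chance gives about 5%, so 1 case is not more than chance would give. The other 3 libraries held 1 to 20 counts, where the pseudocount of 0.5 CPM narrows their spread on this scale.

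The isolate-against-forebrain difference was larger in Het than in anti-gp120 animals, on the log2 scale and by edgeR's adjusted p, for Folr1 (2.71, 0.0434), Clic6 (4.22, 0.00457), Kl (3.76, 0.00161), Otx2 (2.36, 0.0337), Kcnj13 (4.47, 0.0269) and Prlr (4.25, 0.0124). With the animal as a block only Clic6, Kl and Prlr stayed called. Experiment, genotype and antibody cannot be told apart in that difference.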

How the results depend on the processing

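All 9 genes stayed called in the isolate-against-forebrain comparison of Het and of KO under every alternative run. Counts of the 9 genes called moved as follows, the cause being not tested. In most of these cases the counts over all genes moved too, as given at the end. Without the filter on low counts they were 1 for KO against Het in forebrain, 2 for anti-IL34 against anti-gp120 in forebrain and 3 in the isolates, 2 for isolate against forebrain in anti-gp120, 8 for the difference between antibody arms in that effect, 9 for Het against anti-gp120 and 6 for KO against anti-IL34 in forebrain. DESeq2 gave 4 for anti-IL34 against anti-gp120 and 3 for Het against anti-gp120 in the isolates; its adjusted p was missing in 29 of 131 tests of the 9 genes. Without sex terms the count was 1 for anti-IL34 against anti-gp120 in the isolates and 1 for KO against anti-IL34 in forebrain, and the Slc4a5 difference of KO against Het in forebrain turned from -0.069 to 0.093. With the animal as a replicate block the larger isolate-against-forebrain difference in Het than anti-gp120 was called for 3, and the block changed no other call of the 9 genes beyond those in the report.

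With 1 animal left out, the counts ran from 0 to 5 for anti-IL34 against anti-gp120 and KO against anti-IL34 in the isolates, 0 to 1 for isolate against forebrain in anti-gp120 and 1 to 7 in anti-IL34, 1 to 6 for Het against anti-gp120 in forebrain and 0 to 9 in the isolates, 0 to 4 for KO against anti-IL34 in forebrain, and 2 to 5 for the larger difference in Het than anti-gp120. Of log2 differences, 39 of the left-out fits turned a direction, none of it in a called value. In KO against Het in forebrain the ranges were -0.72 to 0.038 for Folr1, -0.44 to 0.36 for Aqp1, -0.027 to 0.12 for Kcnj13, -0.22 to 0.29 for Slc4a5 and -0.16 to 0.45 for Prlr, and in the isolates -0.87 to 0.037 for Kcnj13. In anti-IL34 against anti-gp120 in forebrain they were -0.11 to 0.57 for Clic6, -0.16 to 0.96 for Kl, -0.31 to 0.47 for Aqp1, -0.013 to 0.56 for Otx2 and -0.062 to 0.75 for Kcnj13. For the difference between Het and KO in isolate against forebrain they were -0.52 to 0.23 for Ttr, -0.43 to 0.22 for Folr1, -0.997 to 0.16 for Clic6, -0.55 to 0.12 for Kl, -0.69 to 0.25 for Aqp1, -0.80 to 0.12 for Otx2 and -0.83 to 0.041 for Kcnj13. For isolate against forebrain they were -3.22 to 3.11 for Ttr, -2.17 to 0.22 for Kcnj13 and -1.38 to 0.12 for Slc4a5 in anti-gp120, and -0.60 to 7.34 for Ttr, -0.33 to 1.16 for Clic6 and -1.35 to 1.02 for Prlr in anti-IL34. An alternative pseudocount of 0.1 CPM moved 21 of 72 mean log2 levels by more than their SD, TMM library sizes 1 of 72, and taking ratios to Folr1 in place of Ttr moved 13 of 14 SDs. In the anti-gp120 libraries Slc4a5 had 0 to 12 counts, Prlr 0 to 25, and Ttr 1 to 66 in all but the forebrain of animal 15, at 720. Whether more depth would change the calls was not tested.

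Counts over all genes moved by more than 1.5 times in these cases, from edgeR's count to that of the alternative. DESeq2 moved KO against Het in the isolates from 976 to 3887, anti-IL34 against anti-gp120 from 123 to 198 in forebrain and from 110 to 2015 in the isolates, Het against anti-gp120 from 175 to 421 and from 160 to 730, KO against anti-IL34 from 275 to 494 and from 488 to 1406, and the 3 differences of isolate against forebrain from 599 to 3635 (genotype), 17 to 1092 (antibody) and 180 to 467 (Het against anti-gp120). No filter gave 381 in place of 120 for KO against Het in forebrain, and 1993, 349, 819, 904, 404, 859, 1569, 1352 and 431 where the counts were 976, 123, 110, 175, 160, 275, 599, 17 and 180. No sex terms gave 2189, 983, 872, 2400 and 222 in place of 976, 110, 488, 599 and 17, RLE size factors 48 in place of 17, and the replicate block 0, 0 and 76 in place of 599, 17 and 180. With 1 animal left out these counts ran from 55 to 117 for KO against Het in forebrain and 0 to 5756 in the isolates, 25 to 126 and 0 to 6905 for anti-IL34 against anti-gp120, 74 to 325 and 0 to 455 for Het against anti-gp120, 94 to 323 and 0 to 991 for KO against anti-IL34, and 0 to 5688 (genotype), 0 to 5565 (antibody) and 56 to 206 (Het against anti-gp120) for the differences of isolate against forebrain. The levels per kb of span were added after seeing the data.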
